A study of Mus musculus with 16 samples.

Results

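Voltage-gated calcium channels admit the calcium that starts each heartbeat. A pore subunit (alpha 1) carries the current, an auxiliary beta subunit and an alpha 2 delta subunit attach to it, and together they set how many channels reach the membrane and how they gate. L-type channels open at strong depolarization and trigger contraction of adult ventricular muscle, whereas T-type channels open at weaker depolarization, are known from the fetal heart and pacemaker tissue, and are scarce in the healthy adult ventricle. The pore gene Cacna1c is also a described splicing target of RBM20, the splicing factor mutated in these mice. 6 subunit genes were followed here, out of 18662 genes tested: the L-type pores Cacna1c and Cacna1d, the T-type pores Cacna1g and Cacna1h, the beta subunit Cacnb2 and the alpha 2 delta subunit Cacna2d1. They were chosen by symbol, and all 6 passed the filter on low counts. All splicing events that the deposited tables list under these symbols were taken, 75 distinct events in all.

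Left ventricles of 16 Bl6J mice were sequenced, 4 mice to a group and 1 library to a mouse. 8 of them carried the RBM20 P635L mutation on both alleles and 8 were wild type (WT). At the age of 4 weeks each had received 1e12 viral genomes of AAV9 into a tail vein, and the hearts were taken 12 weeks later, at 16 weeks. The virus brought in either the cDNA of Tnpo3, whose product is an importer of proteins into the nucleus, or a control construct (Ctr), in which the CAG promoter drove Cre recombinase and green fluorescent protein. Groups are named by genotype and virus (WT Ctr and P635L Ctr for the control construct, WT Tnpo3 and P635L Tnpo3 for the cDNA). No mouse went without virus, every control mouse therefore carried Cre and the fluorescent protein, and males and females were used without the sex of single mice being given.

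Library totals ran from 28493249 to 85922669 counts. Tnpo3 lay between 231 and 723 CPM (counts scaled to a common library total) in the 8 libraries labelled Tnpo3 and between 41.6 and 49.4 CPM in the others, as the labels say. In 3 WT libraries, and in 0 of the P635L libraries, 1 gene (ENSMUSG00000119584) took 19.96% to 22.7% of all counts, against 0.703% to 5.30% elsewhere. Xist exceeded the Y-linked genes in 3 libraries, all of them WT. The channel results below were recomputed without each of these sets.

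The exons on which the splicing results turn are shown first, in lower case and 5′ to 3′. They come from transcripts of GENCODE M21 on the GRCm38 build, matched to the deposited events by exon length and order, because no sequence of the authors' GRCm39 build was used here. Cacna1c lies on the minus strand of chromosome 6 and has 3 pairs of exons that replace each other. Each pair encodes an alternative version of a membrane-spanning stretch of the pore, and capitals mark the bases at which the members of a pair differ.

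Cacna1c 104-base pair, first exon in the transcript (chr6:118742265-118742368): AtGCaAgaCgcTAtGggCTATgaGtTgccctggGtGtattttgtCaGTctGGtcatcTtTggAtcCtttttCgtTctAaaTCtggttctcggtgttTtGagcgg
Cacna1c 104-base pair, second exon (chr6:118741871-118741974): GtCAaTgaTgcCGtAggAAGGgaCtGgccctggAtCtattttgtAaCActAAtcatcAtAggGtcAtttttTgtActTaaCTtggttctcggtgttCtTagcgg
Cacna1c 60-base pair, first exon (chr6:118674555-118674614): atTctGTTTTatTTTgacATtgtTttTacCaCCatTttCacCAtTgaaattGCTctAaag
Cacna1c 60-base pair, second exon (chr6:118674346-118674405): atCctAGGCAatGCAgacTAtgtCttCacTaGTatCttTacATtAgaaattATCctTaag
Cacna1c 84-base pair, first exon (chr6:118638427-118638510): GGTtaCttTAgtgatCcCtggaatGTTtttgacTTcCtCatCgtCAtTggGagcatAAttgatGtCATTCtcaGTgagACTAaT
Cacna1c 84-base pair, second exon (chr6:118637730-118637813): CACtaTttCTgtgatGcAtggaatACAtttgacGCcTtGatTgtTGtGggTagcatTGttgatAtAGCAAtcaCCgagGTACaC

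The 104-base pair had the same base at 72 positions (69.2%), the 60-base pair at 35 (58.3%) and the 84-base pair at 49 (58.3%). All 6 exons are coding in the annotation. Of the other events, the 75-base cassette exon of Cacna1c lies in the linker between the first and the second repeat of the pore, and the 33-base exon lies between segments 3 and 4 of the fourth repeat. The 2 Cacna1g events, on the minus strand of chromosome 11, are the ones that passed the call rule below, and capitals there mark the bases present only in the longer form. The 21-base exon of Cacna2d1 is on the plus strand of chromosome 5.

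Cacna1c 75-base exon (chr6:118715903-118715977): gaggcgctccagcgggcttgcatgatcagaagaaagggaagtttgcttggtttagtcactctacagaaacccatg
Cacna1c 33-base exon (chr6:118630399-118630431): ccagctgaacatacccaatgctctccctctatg
Cacna1g exon with the 21-base longer donor (chr11:94425764-94425977): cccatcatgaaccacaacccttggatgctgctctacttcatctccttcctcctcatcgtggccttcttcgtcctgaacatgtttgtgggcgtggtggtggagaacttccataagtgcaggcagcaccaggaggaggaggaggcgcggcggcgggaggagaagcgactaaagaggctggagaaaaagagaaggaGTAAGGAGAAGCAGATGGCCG
Cacna1g exon with the 49-base longer acceptor (chr11:94416626-94416704): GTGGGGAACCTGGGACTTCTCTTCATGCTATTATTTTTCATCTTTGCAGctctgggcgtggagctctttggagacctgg
Cacna2d1 21-base exon (chr5:16341990-16342010): caaaaaagggaaaaatgaagg

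Lengths of 75, 33 and 21 bases keep the reading frame, whereas forms with and without the 49-base stretch differ in frame. The longer form is coding in the annotation.

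Both T-type pore genes were higher in P635L Ctr than in WT Ctr hearts, and none of the other 4 channel genes passed the test. Cacna1g rose 4.87-fold and Cacna1h 2.96-fold. With the Tnpo3 virus, Cacna1g fell 2.46-fold in P635L hearts and remained above both WT groups. At an adjusted p under 0.05 in edgeR's quasi-likelihood test, 2 of the 6 channel genes were called between P635L Ctr and WT Ctr, both higher, where 14.2% of all genes tested were called and 7.07% were called higher. The libraries of the groups did not overlap in 2 of the 6 genes, against 19.1% of all genes tested. Between P635L Tnpo3 and P635L Ctr 1 of 6 was called, against 3.88% of all genes. Between WT Tnpo3 and WT Ctr 0 of 6 were called, against 0.00536%; 0 of the 6 had an unadjusted p under 0.05, and DESeq2 also called 0. The median log2 fold change of the 6 genes between P635L Ctr and WT Ctr was -0.25, and that of all genes was -0.05.

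**Figure D1:**
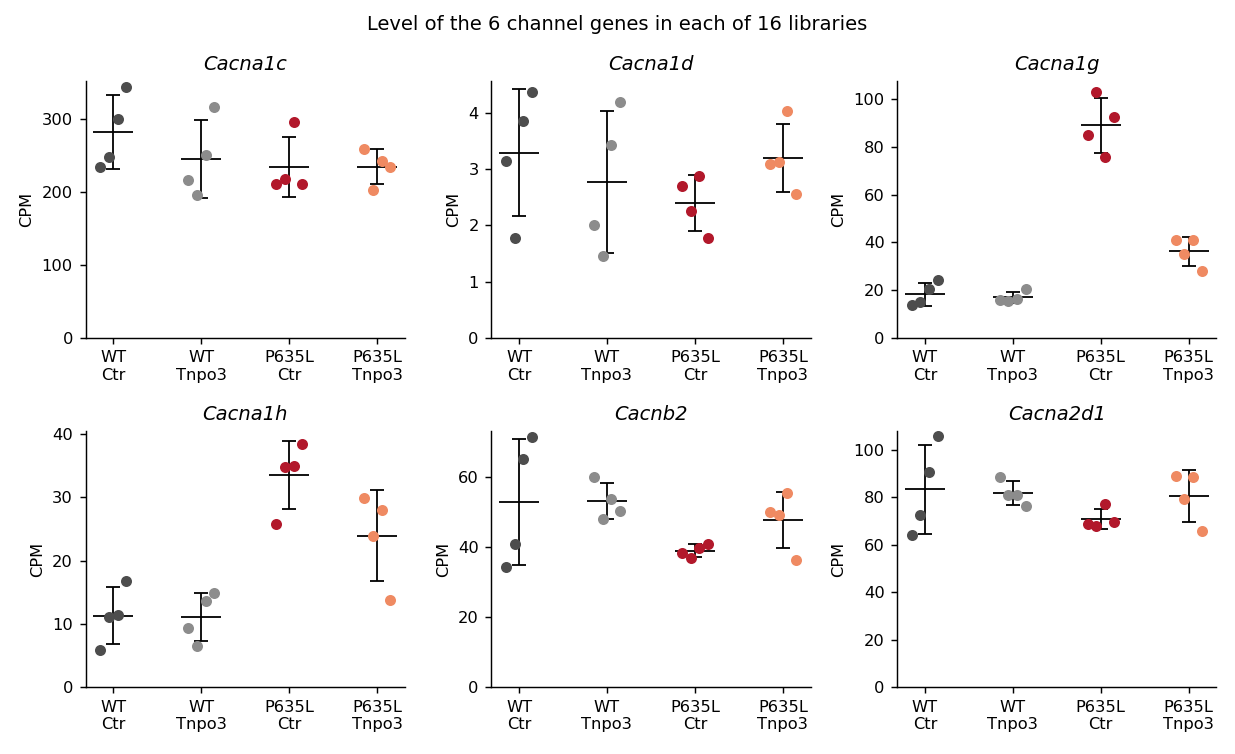
Level of each channel gene (CPM, scaled with TMM factors) in all 16 libraries, 1 panel per gene with its own axis from 0, 1 point per library, with the group mean (long bar) and SD (whiskers, n = 4). For Cacna1g the 4 P635L Ctr points lie between 75.6 and 103.2 CPM, above the other 3 groups, and the P635L Tnpo3 points lie between 28.1 and 41.1 CPM, above both WT groups.

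Cacna1g encodes the T-type pore Cav3.1 (ENSMUSG00000020866, GRCm39 chromosome 11, 94299217 to 94365024, minus strand). In WT Ctr its level was 13.6, 15.1, 20.3 and 24.1 CPM in replicates 1 to 4. In WT Tnpo3 it was 15.9, 15.3, 16.4 and 20.3 CPM. In P635L Ctr it was 84.9, 103.2, 75.6 and 92.4 CPM, so that the lowest of these libraries was more than any library of another group. In P635L Tnpo3 it was 41.1, 35.0, 40.9 and 28.1 CPM. Both WT groups overlapped, and the P635L Tnpo3 libraries formed a separate middle range that touched neither the WT groups nor P635L Ctr. Group means were 18.3 ± 4.82 CPM in WT Ctr, 17.0 ± 2.28 in WT Tnpo3, 89.0 ± 11.7 in P635L Ctr and 36.3 ± 6.12 in P635L Tnpo3 (SD, n = 4 each). These levels rest on 365 to 832 counts per WT library, 3314 to 9775 per P635L Ctr library and 1460 to 2100 per P635L Tnpo3 library.

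Between P635L Ctr and WT Ctr, Cacna1g differed by 2.28 on the log2 scale (SE 0.18, adjusted p = 1.52e-07 in edgeR). The Tnpo3 virus was followed by a change of -1.30 in P635L hearts (SE 0.17, edgeR adjusted p = 0.000305) and of -0.11 in WT hearts (SE 0.17, edgeR adjusted p = 1.00). These effects differed by -1.19 between the genotypes, as tested by the interaction term (SE 0.24, adjusted p = 0.0283 in edgeR), where 0.504% of all genes were called. This interaction lost its call in edgeR when P635L Ctr replicate 1, 2 or 4 or P635L Tnpo3 replicate 2 was left out, with adjusted p-values of 0.0631, 0.0834, 0.069 and 0.0816.

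Cacna1g in P635L Tnpo3 hearts was still 1.98-fold higher than in WT Ctr (log2 0.99, SE 0.17, edgeR adjusted p = 0.0027) and 2.14-fold higher than in WT Tnpo3 (log2 1.10, SE 0.17, edgeR adjusted p = 0.00132). It was the 1 channel gene of 6 called in each of these comparisons, in which 3.07% and 3.72% of all genes were called. The exact permutation test over the 8 libraries gave p = 0.0286, two-sided, for each of the 4 called comparisons between groups, which is the smallest p that 4 against 4 libraries can give. In the authors' deposited table, the log2 fold change over WT Ctr was 2.30 for P635L Ctr (adjusted p = 3.83e-31) and 1.01 for P635L Tnpo3 (adjusted p = 6.99e-05). Without the 3 libraries rich in 1 gene, the log2 fold change between P635L Ctr and WT Ctr was 2.43, and without the 3 libraries with Xist above the Y-linked genes it was 2.48.

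Cacna1h encodes the T-type pore Cav3.2 (ENSMUSG00000024112, GRCm39 chromosome 17, 25593259 to 25652757, minus strand). Its level was 5.86, 11.1, 11.4 and 16.8 CPM in the WT Ctr replicates and 9.44, 6.53, 13.7 and 14.9 CPM in the WT Tnpo3 replicates. In P635L Ctr it was 25.8, 34.8, 34.9 and 38.4 CPM, and all 4 lay above the 8 WT libraries. In P635L Tnpo3 it was 29.9, 23.8, 28.04 and 13.8 CPM. 3 of these lay above the WT libraries, and replicate 4 fell within the WT range. Group means were 11.3 ± 4.47 in WT Ctr, 11.1 ± 3.85 in WT Tnpo3, 33.5 ± 5.37 in P635L Ctr and 23.9 ± 7.18 CPM in P635L Tnpo3 (SD, n = 4 each).

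Cacna1h differed by 1.56 on the log2 scale between P635L Ctr and WT Ctr (SE 0.31, adjusted p = 0.00268 in edgeR). Between P635L Tnpo3 and P635L Ctr it was -0.49 (95% interval -1.11 to 0.14, edgeR adjusted p = 0.415), so a change was not shown. Its virus effects differed between the genotypes by -0.46 (SE 0.43, adjusted p = 0.693 in edgeR). P635L Tnpo3 hearts did not pass the edgeR test against WT Ctr (log2 1.08, SE 0.31, adjusted p = 0.0701) or against WT Tnpo3 (log2 1.11, SE 0.31, adjusted p = 0.0552). The first of these moved past the threshold in 5 of 24 alternatives and the second in 7 of 24. Without P635L Tnpo3 replicate 4 the adjusted p in edgeR against WT Ctr was 0.0402, without WT Ctr replicate 4 it was 0.0377 and without WT Tnpo3 replicate 2 it was 0.0457. In the authors' deposited table Cacna1h was higher in both P635L groups, with log2 fold changes over WT Ctr of 1.58 (adjusted p = 4.61e-08) and 1.11 (adjusted p = 0.00786).

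**Figure D2:**
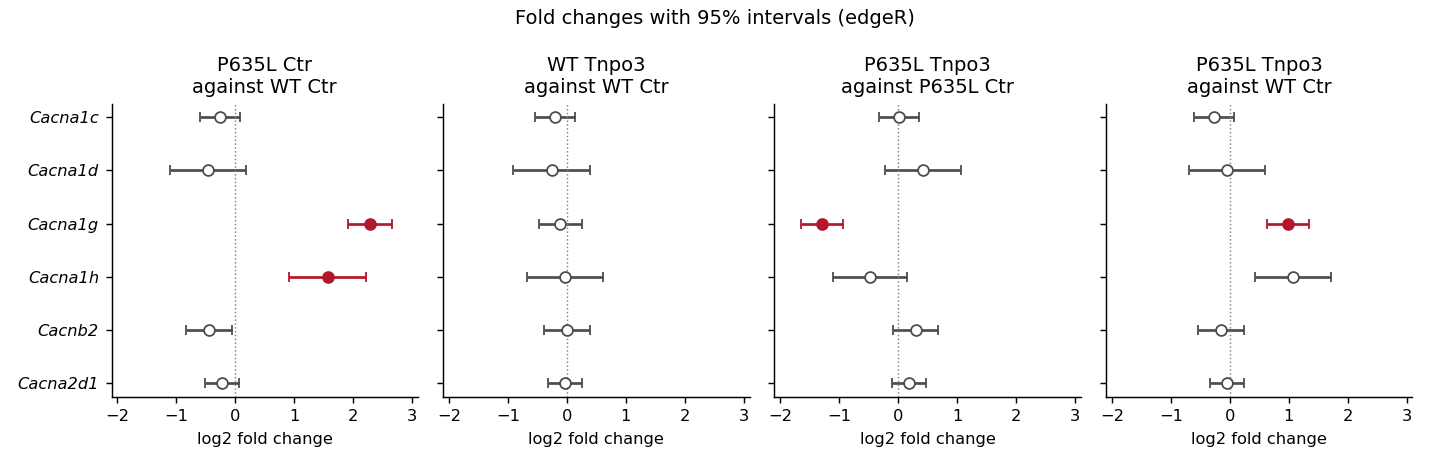
Log2 fold changes of the 6 channel genes from edgeR, with 95% intervals. The panels show P635L Ctr against WT Ctr, WT Tnpo3 against WT Ctr, P635L Tnpo3 against P635L Ctr and P635L Tnpo3 against WT Ctr. Filled points passed an adjusted p of 0.05 over all genes tested. Cacna1g passed in every panel except WT Tnpo3 against WT Ctr. Cacna1h passed in P635L Ctr against WT Ctr, and no other gene passed in any.

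Cacna1c, the pore of the main L-type channel of the ventricle (Cav1.2; ENSMUSG00000051331, GRCm39 chromosome 6, 118564201 to 119173851, minus strand), overlapped between all groups. Its level was 233, 248, 300 and 344 CPM in WT Ctr and 215, 196, 250 and 316 CPM in WT Tnpo3. In P635L Ctr it was 210, 218, 295 and 211 CPM, with replicate 3 standing above the other 3. In P635L Tnpo3 it was 259, 202, 242 and 234 CPM. The log2 fold change between P635L Ctr and WT Ctr was -0.27 (95% interval -0.61 to 0.07, edgeR adjusted p = 0.295), and between the P635L groups it was 0.01 (95% interval -0.33 to 0.34, edgeR adjusted p = 0.993). These intervals do not reach the size of the Cacna1g difference in either comparison.

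Cacna1d, the L-type pore Cav1.3 known from atrial and pacemaker cells (ENSMUSG00000015968, GRCm39 chromosome 14, 29761896 to 30213412, minus strand), was barely sampled, at 1.46 to 4.38 CPM and 43 to 213 counts over the 16 libraries. Its log2 fold change between P635L Ctr and WT Ctr was -0.47 (95% interval -1.12 to 0.19, edgeR adjusted p = 0.346). The exons of Cacna1d share 589 bases with Chdh on the other strand, and Chdh had at most 16 counts in a library. Whether strand was used in counting is not given in the sources used here, so the Cacna1d values are uncertain.

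With all libraries, neither auxiliary subunit passed the test in any comparison. Cacnb2, the main beta subunit of the heart (ENSMUSG00000057914, GRCm39 chromosome 2, 14607899 to 14992719, plus strand), spread from 34.4 to 71.5 CPM within WT Ctr alone and from 36.9 to 41.0 CPM in P635L Ctr. Between these groups it differed by -0.44 on the log2 scale (SE 0.19, adjusted p = 0.123 in edgeR), and it passed only when WT Ctr replicate 1 was left out (log2 -0.60, edgeR adjusted p = 0.021). Cacna2d1, the alpha 2 delta subunit (ENSMUSG00000040118, GRCm39 chromosome 5, 16139689 to 16579509, plus strand), ranged from 64.3 to 106 CPM in WT Ctr and from 68.1 to 77.2 CPM in P635L Ctr, with a difference of -0.23 on the log2 scale (SE 0.14, adjusted p = 0.287 in edgeR). With the virus in P635L hearts the log2 fold changes were 0.29 for Cacnb2 (edgeR adjusted p = 0.428) and 0.18 for Cacna2d1 (edgeR adjusted p = 0.525). In both genes the libraries overlapped in each of the 5 comparisons tested. P635L Ctr and WT Tnpo3, a pair that was not tested, did not overlap in Cacnb2 (36.9 to 41.0 against 48.2 to 60.04 CPM). The share of all genes without overlap was not computed for this pair, so no difference in Cacnb2 is shown by it.

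Levels of different genes were compared per kilobase of merged exons (CPM per kb). Merged exons pool all annotated forms of a gene, 21864 bases for Cacna1c and 10137 for Cacna1g. The lengths of the transcripts expressed were not measured, so comparisons between genes depend on the annotation. In WT Ctr the order was Cacna1c at 12.9, Cacna2d1 at 6.71, Cacnb2 at 4.01, Cacna1g at 1.80, Cacna1h at 1.16 and Cacna1d at 0.217 CPM per kb (means of n = 4), and WT Tnpo3 had the same order. The ranges of Cacna2d1 and Cacnb2 overlapped in WT Ctr, as did those of Cacna1g and Cacna1h, although the order held within each of the 4 libraries. In P635L Ctr Cacna1g stood second at 8.78 ± 1.15 CPM per kb, behind Cacna1c at 10.7 ± 1.88 (SD, n = 4), and these ranges overlapped: Cacna1c was the higher in 3 of 4 libraries. Cacna1h, at 3.43 ± 0.550, was above Cacnb2, at 2.95 ± 0.135, in 3 of 4 libraries. In P635L Tnpo3 Cacnb2 and Cacna1g could not be ordered, at 3.62 ± 0.614 and 3.58 ± 0.604 CPM per kb, with Cacnb2 the higher in 2 of 4 libraries.

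The share of the T-type genes in the summed per-kilobase level of the 4 pore genes, a measure chosen after the values had been seen, was 15.2%, 18.6%, 18.5% and 20.4% in WT Ctr. In WT Tnpo3 it was 20.3%, 19.4%, 20.5% and 19.3%. In P635L Ctr it was 52.9%, 57.6%, 44.7% and 57.2%, and with the Tnpo3 virus in P635L hearts 37.2%, 38.4%, 37.8% and 27.8%. The P635L Ctr libraries lay above all others and the P635L Tnpo3 libraries above both WT groups. Per kilobase, Cacna1g stood at 13.9 ± 1.19% of Cacna1c in WT Ctr, 15.2 ± 1.45% in WT Tnpo3, 84.8 ± 20.6% in P635L Ctr and 33.5 ± 5.20% in P635L Tnpo3 (SD, n = 4 each). These shares depend on the annotated exon lengths. Without scaling to length, the means of Cacna1g and Cacna1c were 18.3 and 281 CPM in WT Ctr and 89.0 and 233 CPM in P635L Ctr.

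**Figure D3:**
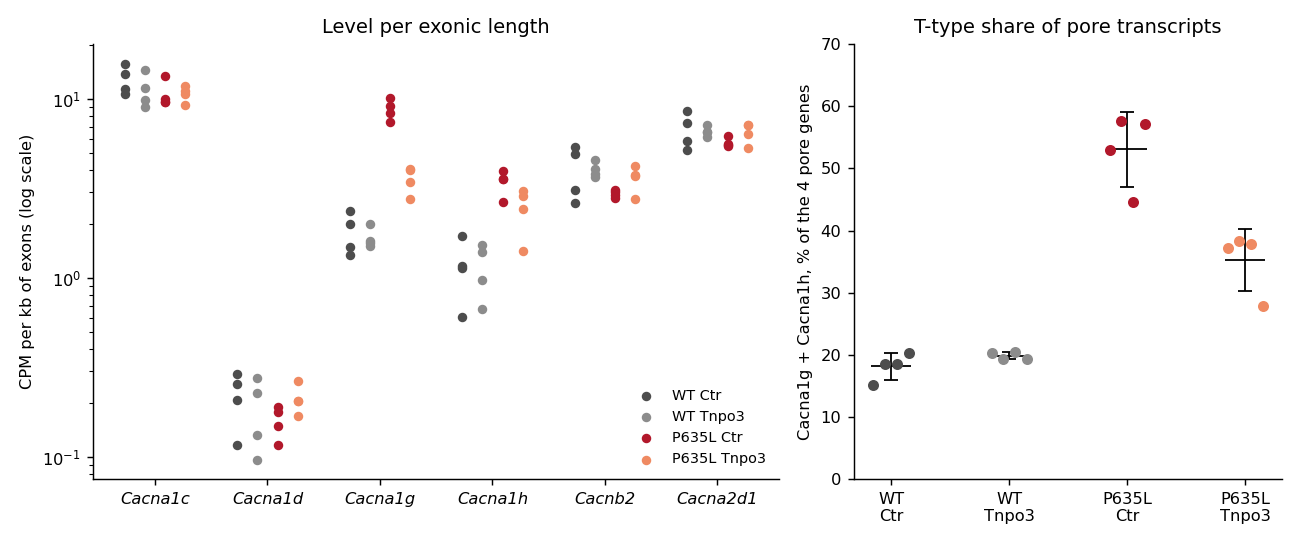
Left, level per kilobase of merged exons (CPM per kb, log axis) of the 6 channel genes in the 4 groups, with 1 point per library. Right, share of Cacna1g and Cacna1h in the summed level of the 4 pore genes, with group mean and SD (n = 4). The group mean of Cacna1g moves from 1.80 CPM per kb in WT Ctr to 8.78 in P635L Ctr and 3.58 in P635L Tnpo3. Group means of Cacna1c lie between 10.7 and 12.9. These means are not drawn in the left panel.

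In bulk tissue, fewer cells of a type and less RNA per cell cannot be told apart, and RNA of cell type markers differed between the groups. Of 5 ventricular cardiomyocyte markers, which were all abundant, 3 were lower in P635L Ctr than in WT Ctr (Myh6, Myl2 and Myl3), where 7.14% of all genes were called lower; their list summed to 63431 to 73092 CPM in WT Ctr, 49727 to 66087 in WT Tnpo3, 42149 to 46388 in P635L Ctr and 46912 to 55310 in P635L Tnpo3. All 5 fibroblast markers (Dcn, Pdgfra, Tcf21, Col1a1 and Gsn) were higher in P635L Ctr, against 7.07% of all genes, and with the virus 4 of 5 were lower in P635L hearts, where 2.25% of all genes were called lower. Their sum was 2134 to 2657 CPM in WT Ctr, 2175 to 2707 in WT Tnpo3, 3385 to 4754 in P635L Ctr and 2454 to 3033 in P635L Tnpo3. The fibroblast sum was thus highest in the group in which Cacna1g and Cacna1h were highest, and their part in the result was not tested.

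The marker lists of conduction and pacemaker cells, the atria and skeletal muscle had lower sums. Sums of different lists do not compare the amounts of tissue. Markers of conduction and pacemaker cells summed to 32.7 to 45.1 CPM in WT Ctr and 30.7 to 38.7 CPM in P635L Ctr. The WT Tnpo3 and P635L Tnpo3 sums, at 24.5 to 33.5 and 22.2 to 39.8 CPM, overlapped those ranges. Of the 4 tested, Tbx3 was called lower and 0 were called higher, against 7.14% and 7.07% of all genes. Isl1 was at 0 counts in every library. On average, Hcn4 and Tbx3 were lower in P635L Ctr than in WT Ctr, at 11.6 against 14.3 and 13.0 against 17.2 CPM. Shox2 and Cntn2 were higher, at 1.18 against 0.471 and 8.33 against 5.12 CPM. Atrial markers summed to 6.22 to 13.1 CPM in WT Ctr, 5.20 to 9.35 in WT Tnpo3, 17.3 to 27.7 in P635L Ctr and 6.56 to 17.6 in P635L Tnpo3, with only Dkk3 of the 2 tested called higher; Myl7, Sln and Bmp10 were too low to test. Skeletal muscle markers summed to 1.16 to 1.80, 0.820 to 1.39, 9.80 to 12.8 and 2.67 to 6.24 CPM in the same order of groups, with Tnnt3 called higher of 2 tested. The atrial and skeletal sums were, like Cacna1g, higher in P635L Ctr than in WT Ctr, and each difference came mainly from 1 gene. Mean levels in WT Ctr and in P635L Ctr were 3.55 and 17.2 CPM for Dkk3 and 1.08 and 10.8 CPM for Tnnt3. Of the atrial list, Myl7, Sln and Bmp10 were near 0 and lower on average in P635L Ctr. Their means in the same order were 0.226 and 0.0718 CPM for Myl7, 0.330 and 0.00471 CPM for Sln and 0.0176 and 0 CPM for Bmp10. Myl4 of that list went the other way, with means of 4.70 and 6.82 CPM in the same order, and was not called. Actn3 of the skeletal list had 0.286 and 0.270 CPM. The part of these genes in the result was not tested. Of the macrophage list 1 of 5 was lower (Cd68), and of the endothelial, smooth muscle and Schwann cell lists 0 were called between P635L Ctr and WT Ctr.

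Of 20 other genes for calcium channel subunits, 13 were expressed enough to test. Between P635L Ctr and WT Ctr 3 were higher and 2 lower, against 7.07% and 7.14% of all genes, and the median log2 fold change of the 13 was 0.39, against -0.05 for all genes. The largest difference was in Cacna1s, the L-type pore of skeletal muscle, which fell from 13.1 ± 3.73 CPM in WT Ctr to 2.16 ± 0.858 CPM in P635L Ctr (log2 -2.61, SE 0.25, edgeR adjusted p = 1.54e-06), with no overlap between libraries. In P635L Tnpo3 it stood at 3.93 ± 0.265 CPM, still lower than in WT Ctr (log2 -1.74, edgeR adjusted p = 0.000445); the change with the virus in P635L hearts was 0.88 and did not pass (edgeR adjusted p = 0.0528). Among the skeletal muscle genes called here, the pore Cacna1s was lower in P635L Ctr than in WT Ctr. The thin filament gene Tnnt3 was higher, as was Cacnb1 in the next paragraph. Their part in the result was not tested.

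The 3 that rose between WT Ctr and P635L Ctr were Cacna1a, the P/Q-type pore (log2 0.69, edgeR adjusted p = 0.0282), Cacnb1, the beta subunit of skeletal muscle (log2 0.60, edgeR adjusted p = 0.0062), and Cacna2d2, an alpha 2 delta subunit (log2 1.00, edgeR adjusted p = 0.0411). Cacna1b, the N-type pore, fell (log2 -2.25, edgeR adjusted p = 0.0231) on 2 to 37 counts per library. With the virus, 0 of the 13 were called in either genotype, against 3.88% of all genes in P635L hearts and 0.00536% in WT hearts. Of 25 regulators of the channel and partners at the dyad, the junction of the cell membrane with the calcium store, 24 were tested. Between P635L Ctr and WT Ctr 3 were lower and 0 higher, against 7.14% and 7.07% of all genes. Among the 3 were Prkar2a, a regulatory subunit of protein kinase A (log2 -0.46, edgeR adjusted p = 0.0279) and Jph1, a junctophilin (log2 -0.62, edgeR adjusted p = 0.0277). With the virus 0 of the 24 were called in either genotype, against 3.88% of all genes in P635L hearts and 0.00536% in WT hearts.

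Genes most like each member were ranked by Pearson's r of log2 CPM over the 16 libraries, among 9437 or 9438 genes whose log2 CPM averaged 3 or more; these libraries share groups and depth, and the values are descriptive. Cacna1g was most like the transcript Gm12295 (r = 0.98), Ramp1 (0.97), which encodes a receptor activity-modifying protein, and Atp6v0e2 (0.96), a proton pump subunit. With group means removed these fell to 0.70, 0.69 and 0.65. Cacna1h was most like Cacna1g itself (r = 0.90 over all libraries and 0.79 within groups), Lnx1 (0.90) and Ramp1 (0.90). Cacnb2 and Cacna2d1 were each other's nearest gene, with r = 0.95 over all libraries and 0.95 within groups, followed in both by Arhgap26 (0.91 and 0.86). Cacna1c was nearest to Airn (0.90), Pik3c2b (0.87) and Atxn7 (0.87), and Cacna1d to Cdh23 (0.92), Asxl2 (0.90) and Trrap (0.90).

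In each comparison 0 or 1 splicing events of the channel transcripts were called, and the share of all testable events is given beside each count. The deposited tables list 75 distinct events in the 6 genes: 31 in Cacna1c, 16 in Cacna1g, 10 in Cacna1h, 9 in Cacna2d1, 5 in Cacna1d and 4 in Cacnb2. Events were testable where each group averaged 10 or more junction reads per library. A call needed, besides, a false discovery rate (FDR) below 0.05 in rMATS and inclusion that differed by 0.1 or more. Of 42 testable events 1 was called between P635L Ctr and WT Ctr, where 2.5% of all testable events passed both limits. Between WT Tnpo3 and WT Ctr it was 1 of 37, against 0.928% of all events, and 8 of the 37 differed by 0.1 or more whether called or not. Between P635L Tnpo3 and WT Ctr it was 0 of 36, against 2.1%, although 3 had an unadjusted rMATS p under 0.05. Between P635L Tnpo3 and P635L Ctr, tested with limma, it was 0 of 36, against 0.0171%, with 1 unadjusted p under 0.05. All 5 events of Cacna1d fell under the read minimum in every comparison.

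Both calls were in Cacna1g. The first is the 21-base longer donor shown above (GRCm39 chromosome 11, exon 94316590 to 94316803), in the linker between the third and the fourth repeat of the T-type pore. Inclusion, the length-corrected share of the longer form, was 0, 0, 0.095 and 0.103 in WT Ctr and 0.132, 0.141, 0.195 and 0.134 in P635L Ctr, by listed position, since the tables do not name the libraries. All P635L Ctr values lay above all WT Ctr values, a difference of 0.101 (rMATS FDR = 0.00292; exact permutation p = 0.0286). The WT Ctr values rest on 8 to 25 junction reads per library, against 85 to 208 in P635L Ctr. Both zeros were 0 of 14 and 0 of 8 reads, which allow shares of up to 21.4% and 37.5%, counting error only, so the depth of WT Ctr does not separate these libraries from P635L Ctr one by one. Inclusion was 0, 0, 0 and 0.502 in WT Tnpo3 and 0.276, 0.095, 0 and 0 in P635L Tnpo3, and both groups overlapped P635L Ctr. With limma the call was lost (adjusted p = 0.628), and limma called 0.0977% of all testable events between P635L Ctr and WT Ctr.

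The second call is the 49-base longer acceptor (GRCm39 chromosome 11, exon 94307452 to 94307530) between the WT groups. Inclusion was 1, 1, 0.862 and 0.753 in WT Ctr and 0.83, 0.58, 0.58 and 0.432 in WT Tnpo3, and only the highest WT Tnpo3 value reached into the WT Ctr range. The difference was -0.298 (rMATS FDR = 0.0201; exact permutation p = 0.0571; limma adjusted p = 1.00) on a mean of 17.2 and 23.5 reads per library. In P635L Ctr it was 0.838, 0.865, 0.862 and 0.97, and in P635L Tnpo3 0.915, 0.768, 0.782 and 0.748. The difference between the P635L groups was -0.080 (exact permutation p = 0.114). Limma called 0 of all 31883 testable events between the WT groups. At a minimum mean of 20 reads per library neither Cacna1g event was testable, since WT Ctr averaged 14 and 17.2 reads.

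The other events were chosen for printing after their values had been seen, for their depth and their place in the channel. None of them was called. In the 75-base exon of Cacna1c, inclusion was 0.51, 0.591, 0.41 and 0.385 in WT Ctr and 0.256, 0.446, 0.252 and 0.288 in P635L Ctr. 3 of the 4 P635L Ctr values lay below every WT Ctr value, and the difference was -0.164 (rMATS p = 0.0148, FDR = 0.184; exact permutation p = 0.0857). In P635L Tnpo3 it was 0.476, 0.514, 0.349 and 0.318, which overlapped both, and the difference from P635L Ctr was 0.104 (exact permutation p = 0.171; limma adjusted p = 0.825). WT Tnpo3 had 0.457, 0.479, 0.641 and 0.605, on 24 to 143 junction reads per library.

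For the paired exons of Cacna1c the share of the first exon is given. In the 104-base pair it was 0.983 ± 0.029 in WT Ctr, 0.948 ± 0.099 in WT Tnpo3, 0.958 ± 0.028 in P635L Ctr and 0.992 ± 0.010 in P635L Tnpo3 (SD, n = 4 each), so the first exon prevailed in all groups. In the 60-base pair the second exon prevailed in the mean of every group, with the first at 0.277 ± 0.088, 0.377 ± 0.230, 0.276 ± 0.021 and 0.270 ± 0.190. The same held for the means of the 84-base pair, with the first exon at 0.239 ± 0.051, 0.379 ± 0.165, 0.261 ± 0.015 and 0.208 ± 0.116. 1 WT Tnpo3 library went against this, with the first exon at 0.714 on 7 reads in the 60-base pair and at 0.625 on 32 reads in the 84-base pair. Between P635L Ctr and WT Ctr these pairs differed by -0.025, 0 and 0.022, with exact permutation p-values of 0.171, 1 and 0.457.

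The 33-base exon was included almost always, at 1 in WT Ctr, 0.983 in WT Tnpo3, 0.967 in P635L Tnpo3 and 0.987 in P635L Ctr. The 174-base longer donor of the same exon had an inclusion of 0.078 ± 0.038 in WT Ctr, 0.107 ± 0.050 in WT Tnpo3, 0.082 ± 0.033 in P635L Ctr and 0.066 ± 0.034 in P635L Tnpo3 (SD, n = 4 each). In Cacna1g the 54-base exon that follows the 21-base donor was near full inclusion, with means of 0.971, 0.978, 0.993 and 1 in the same order of groups. The 21-base exon of Cacna2d1 spread widely within WT Ctr, at 0, 0.583, 0.645 and 0.739, the first on 2 reads. It was 0.381, 0.37, 0.515 and 0.05 in P635L Ctr, a difference of -0.163 (exact permutation p = 0.429). Leaving out 1 library at a time gave -0.327 to -0.07, and without the WT Ctr library of 2 reads all P635L Ctr values lay below all WT Ctr values. The 3-base acceptor of Cacnb2 had means of 0.911, 0.957, 0.907 and 0.957, with differences of at most 0.050 between groups.

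**Figure D4:**
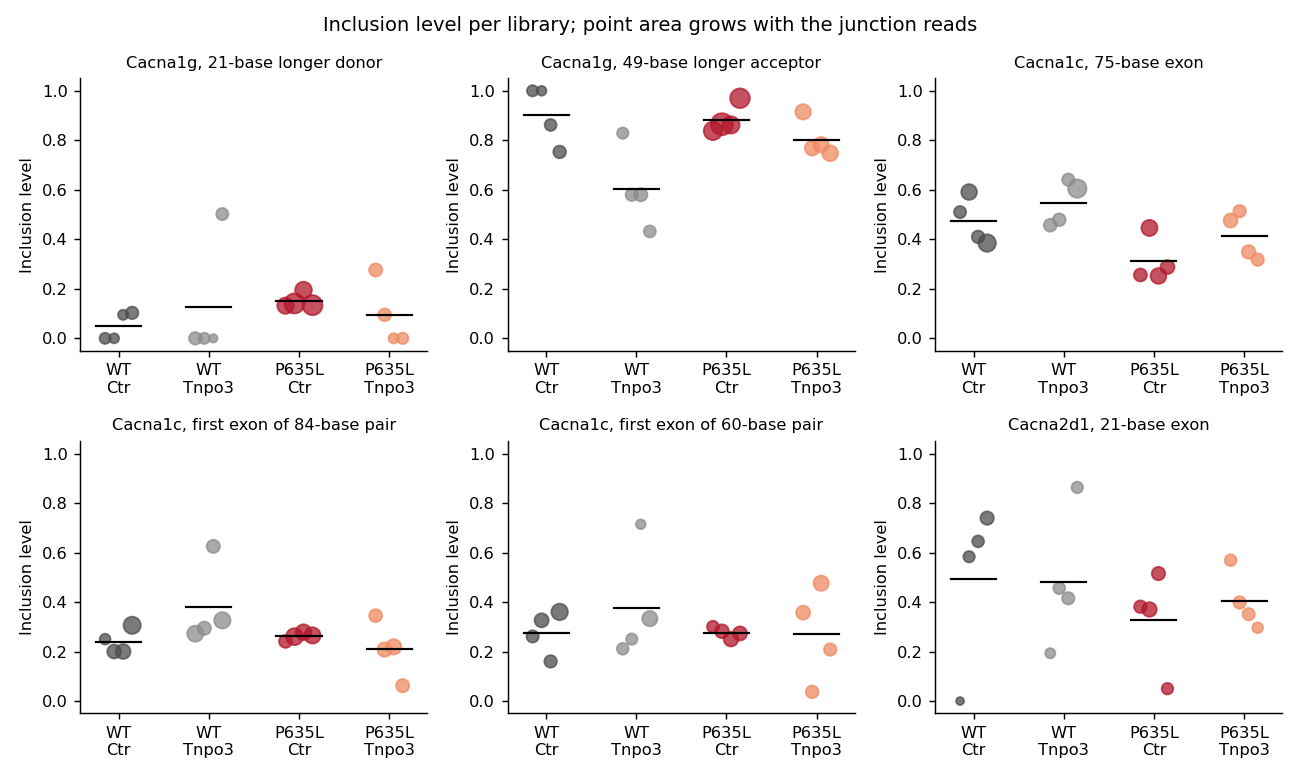
Inclusion level (0 to 1) of 6 events of the channel genes in each library of the 4 groups, with point area growing with junction reads and a line at the group mean; for the pairs, inclusion is the share of the first exon. The 4 P635L Ctr values of the 21-base donor lie between 0.132 and 0.195, above WT Ctr, on more reads than in any other group, and the remaining panels show overlapping libraries in P635L Ctr and WT Ctr.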

How the data were processed

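Per the submitters' processing notes, reads were processed with STAR 2.7.9a and featureCounts 2.0.6 on GRCm39, and DESeq2 was used (version not given in the sources used here). The authors deposited raw counts per gene. The authors' deposited comparison tables give log2 fold changes, p-values, a Wald score and a mean signal of normalised counts per gene. Their deposited rMATS tables give junction read counts, inclusion levels (fraction from 0 to 1) and p-values per event for 3 comparisons with WT Ctr; the rMATS version is not given in the sources used here.

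The deposited counts entered the quasi-likelihood F test of edgeR 4.0.16 (R 4.3.3; TMM, filterByExpr, robust), with 1 mean for each group, all 16 libraries and 12 residual degrees of freedom. 18662 genes were tested and p-values were adjusted by Benjamini-Hochberg over all of them. All tests were two-sided. For P635L Tnpo3 against P635L Ctr, the mutant rMATS tables were joined by gene, type and coordinates (35475 events) and limma 3.58.1 was run on log2 ratios of inclusion to skipping reads (pseudocount 0.5, precision weights). The tests were run on simulated data. On the read totals of P635L Ctr and WT Ctr, limma recovered few simulated inclusion changes of 0.2. Events that limma did not call are therefore not shown to be unchanged. Alternatives were DESeq2 1.42.0, other scalings and filters, a replicate block, fits without single libraries or sets of libraries, and other limits on events. The 6 genes were the named genes, with those of the other lists called in P635L Ctr against WT Ctr or with the virus in P635L hearts. Members and lists were chosen with earlier results of these data known. Interval and share limits cover counting error or the spread between these mice only. 1 called gene of the regulator list is not reported here.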

Additional observations from a re-analysis of the deposited data

Results flagged for a closer look

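Among 62 groups of 4 values (gene levels and inclusion of the printed events), 8 had 1 extreme value by Dixon's criterion. Its distance to its nearest neighbour took a larger part of the group's range than the 95% critical value for 4 values. Chance gives about 1 such group in 20 for normally distributed values. Inclusion levels are bounded and often tied at 1, so that rate does not hold for them. For Cacna1c this share of the range was 0.915 in P635L Ctr, where replicate 3 stood at 295 CPM and the others at 210 to 218 CPM. The remaining 7 were inclusion values, 4 of them in Cacna1c. In WT Tnpo3, 1 library had 0.931 inclusion of the 33-base exon and the others 1, so the gap was the whole range (1.0). In the 104-base pair the gap took 0.833 of the range in WT Ctr (0.94 against 0.99 to 1) and 0.96 in WT Tnpo3, where the low value of 0.8 rests on 10 reads. In the 84-base pair it took 0.847 in WT Tnpo3 (1 library at 0.625). In Cacna1g it took 0.857 for the 21-base donor in P635L Ctr (1 library at 0.195). For the 54-base exon of Cacna1g, 1 library each in WT Ctr (0.885) and WT Tnpo3 (0.912) lay below full inclusion, and the gap was again the whole range (1.0).

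The effect of the Tnpo3 virus on Cacna1g differed between the genotypes by -1.19 on the log2 scale (edgeR adjusted p = 0.0283): the gene fell in P635L hearts and did not pass the test in WT hearts.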

How the results depend on the processing

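Cacna1g kept its direction and its side of the threshold in 24 of 24 alternatives in each of its 4 called comparisons of groups, with log2 fold changes of 2.17 to 2.48 (P635L Ctr against WT Ctr), -1.37 to -1.19 (P635L Tnpo3 against P635L Ctr), 0.87 to 1.19 (P635L Tnpo3 against WT Ctr) and at least 1.03 (P635L Tnpo3 against WT Tnpo3). So did Cacna1h between P635L Ctr and WT Ctr, at 1.35 to 1.98. The Cacna1g interaction passed in 19 of 23 alternatives (adjusted p from 0.000717 to 0.0834 over DESeq2 and edgeR fits). Between P635L Tnpo3 and WT Ctr, 2 channel genes instead of 1 were called with DESeq2 and without the Xist-high libraries. Against WT Tnpo3, 2 were called with DESeq2 and without the libraries rich in ENSMUSG00000119584. Leaving out single libraries gave 1 to 2 calls in each of these comparisons and 0 to 1 for the interaction; the cause was not tested. Splicing calls fell from 1 to 0 between P635L Ctr and WT Ctr at 20 reads, at a difference of 0.2, with limma and in limma fits without each library (0 to 0). Between the WT groups they fell from 1 to 0 at 20 reads, with limma and in those fits (0 to 0). At a difference of 0.2 they remained 1. The limit of 20 reads excluded both events, which averaged 14 and 17.2 reads in WT Ctr. The limit of 0.2 excluded the donor, which differed by 0.101, so the calls lost at these limits do not test the events. Limma called 0.0977% and 0% of all testable events in these comparisons.

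Changes of sign were limited to fold changes that had not passed the test, and none passed after it. Upper-quartile factors gave 0.0148 for Cacna2d1 (P635L Tnpo3 against WT Tnpo3). Without the libraries rich in ENSMUSG00000119584, Cacna1h stood at 0.2135 and Cacna2d1 at 0.1444 (WT Tnpo3 against WT Ctr), Cacna2d1 at 0.0936 (P635L Tnpo3 against WT Ctr) and Cacna1c at 0.0896 (P635L Tnpo3 against WT Tnpo3). Without the Xist-high libraries, Cacna1g stood at 0.0073, Cacna1h at 0.3163 and Cacna2d1 at 0.1895 (WT Tnpo3 against WT Ctr), Cacna1d at 0.1554, Cacnb2 at 0.0621 and Cacna2d1 at 0.1257 (P635L Tnpo3 against WT Ctr), Cacna1c at 0.0184 (P635L Tnpo3 against WT Tnpo3), and the interaction at -0.0091 for Cacnb2 and -0.0018 for Cacna2d1. Leaving out single libraries gave -0.223 to 0.0544 for Cacna1g, -0.2393 to 0.2294 for Cacna1h, -0.1551 to 0.1795 for Cacnb2 and -0.1306 to 0.1102 for Cacna2d1 (WT Tnpo3 against WT Ctr). It gave -0.0465 to 0.1356 for Cacna1c (P635L Tnpo3 against P635L Ctr), -0.2229 to 0.1204 for Cacna1d, -0.3083 to 0.0261 for Cacnb2 and -0.1526 to 0.088 for Cacna2d1 (P635L Tnpo3 against WT Ctr), and -0.1503 to 0.0874 for Cacna1c, -6e-04 to 0.4779 for Cacna1d and -0.0721 to 0.0637 for Cacna2d1 (P635L Tnpo3 against WT Tnpo3).

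Replicate numbers did not pair the mice: of 24 pairs of libraries with the same number 6 correlated above 0.1 (range -0.257 to 0.552), and the same number correlated best in 11 of 48 choices. A replicate block moved Cacna1d to 0.0156 (P635L Tnpo3 against WT Ctr), gave 2.30 for Cacna1g between P635L Ctr and WT Ctr (edgeR adjusted p = 1.58e-06), and changed no call in the 6 genes. Depth limits the splicing values, with 8 to 25 reads per WT Ctr library at the 21-base donor of Cacna1g.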

Other observations

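1 further event of the 6 genes had an rMATS FDR under 0.05 but too few reads to be tested by the rule above. It is a 207-base form of the Cacna1c exon that holds the 33-base exon and its longer donor (GRCm39 chromosome 6, 118607186 to 118607392, minus strand), between P635L Tnpo3 and WT Ctr. Inclusion was 1, 0.429, 0.167 and 1 in P635L Tnpo3, on a mean of 4.75 reads per library, and 1 in all 4 WT Ctr libraries, on a mean of 7.75 reads. The difference was -0.351 (rMATS FDR = 0.038; exact permutation p = 0.429). The longer donor of the same exon, which had 95.2 to 115.2 reads per library on average, differed by -0.012 between these groups (rMATS FDR = 0.684).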
